A study of Homo sapiens with 12 samples.

Results

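Hypoxia-responsive genes are transcribed more when cells run short of oxygen, and 10 of them were followed here in human lung epithelial cells treated with an extract of poultry dust. The 10 were listed by symbol (ANKRD37, ADM, VEGFA, CA9, PFKFB3, PFKFB4, NDRG1, BNIP3, EGLN3 and SLC2A1), and every probe annotated to a listed symbol was taken. Of the 10 genes, 9 had such a probe, and they had 12 probes of the 47320 on the array. The level of CA9, a cell-surface carbonic anhydrase, is not analysed here, while its upstream sequence is counted below. Of the 12 probes, 10 were detected (detection p under 0.05) on at least 2 arrays. These 10 probes belonged to 8 genes, which were among the 20060 features tested (13035 named genes and 7025 unnamed probes).

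The dust-treated groups were BEAS-2B cells and A549 cells, each given 0.25% dust extract for 1 h or for 6 h, and their controls were BEAS-2B and A549 cells in medium alone. All groups had been held overnight in medium lacking serum before treatment, so the controls share that step, and the time at which control cells were collected is not given. BEAS-2B cells are bronchial epithelial cells of a non-cancerous lung that were immortalised, and A549 cells come from a human lung adenocarcinoma, so each stands for its cell type through 1 line. Each of the 6 groups had 2 arrays, numbered 1 and 2. Since nothing says that the numbers are separate cultures, a p-value here measures only the spread between these arrays, which may be technical.

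In cells with enough oxygen, prolyl hydroxylases of the EGLN family mark the alpha subunits of the hypoxia-inducible factors (HIFs) for destruction through VHL. When oxygen falls the alpha subunits persist, pair with ARNT and bind short DNA elements at genes for glucose uptake, glycolysis, blood vessel growth and mitochondrial turnover. Many of these genes also answer signals other than oxygen, such as growth factors and inflammatory mediators.

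The core of the HIF-binding element is ACGTG or GCGTG, and the windows of 250 bases upstream of the start are shown for ANKRD37, ADM and PFKFB4, whose levels after 1 h of dust are described after them, and for BNIP3, which held the most matches. The sequences are from RefSeq (GRCh38.p14), run 5′ to 3′ on the gene's own strand, and have in capitals every ACGTG or GCGTG and every reverse complement (CACGT or CACGC), with overlapping matches written together. The windows lie at chr4:185396591-185396840 (plus strand) for ANKRD37, chr11:10304823-10305072 (plus strand) for ADM, chr3:48556804-48557053 (minus strand) for PFKFB4 and chr10:131981924-131982173 (minus strand) for BNIP3.
ANKRD37: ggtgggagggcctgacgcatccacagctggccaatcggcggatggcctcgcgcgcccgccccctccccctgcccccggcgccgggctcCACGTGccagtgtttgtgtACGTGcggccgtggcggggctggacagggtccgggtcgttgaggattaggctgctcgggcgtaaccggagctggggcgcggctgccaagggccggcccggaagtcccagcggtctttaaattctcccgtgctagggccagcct
ADM: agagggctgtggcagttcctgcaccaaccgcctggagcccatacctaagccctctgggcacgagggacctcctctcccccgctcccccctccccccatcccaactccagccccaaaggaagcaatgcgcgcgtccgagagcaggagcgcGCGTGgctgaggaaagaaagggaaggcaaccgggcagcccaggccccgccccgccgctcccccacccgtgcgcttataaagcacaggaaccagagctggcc
PFKFB4: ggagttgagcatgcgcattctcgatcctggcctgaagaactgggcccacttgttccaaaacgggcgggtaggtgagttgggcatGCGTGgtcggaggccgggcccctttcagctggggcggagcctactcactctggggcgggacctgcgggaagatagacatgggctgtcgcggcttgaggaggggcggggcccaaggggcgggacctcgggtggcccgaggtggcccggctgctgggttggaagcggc
BNIP3: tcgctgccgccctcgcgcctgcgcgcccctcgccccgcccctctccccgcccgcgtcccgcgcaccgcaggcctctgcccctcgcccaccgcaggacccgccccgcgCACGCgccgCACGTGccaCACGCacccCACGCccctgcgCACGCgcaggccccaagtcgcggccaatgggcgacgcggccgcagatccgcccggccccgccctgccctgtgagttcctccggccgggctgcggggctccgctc

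The ANKRD37 window had 3 matches, 162, 161 and 143 bases before the start, the first of which overlaps the second. ADM had 1 match 101 bases before the start, and PFKFB4 had 1 at 166 bases. BNIP3 had 6 matches, from 143 to 104 bases before the start. Windows were available for 8 of the 10 genes (9 windows, 2 of them for PFKFB3), and 7 of the 9 held a match, against 43.2% of 35116 human promoter windows of the same length. At least 3 matches were held by 7.76% of all windows, and at least 6 by 0.646%. A match describes letters only and is no evidence that a factor was bound. CA9 had 1 match 18 bases before the start, and the windows of EGLN3 and SLC2A1 held none. VEGFA and NDRG1 had no entry.

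The 12 arrays came from 1 chip and detected 37.5% to 41.1% of their probes. Replicate arrays correlated at 0.965 to 0.982. All 6 epithelial markers (KRT8, KRT18, KRT19, KRT7, EPCAM and CDH1) were detected on every array. Of 6 genes listed as A549 markers, 4 were on all 6 A549 arrays: AKR1B10 (0 of 6 BEAS-2B arrays), ALDH1A1 (1 of 6), AKR1C2 (3 of 6) and FOXA2 (6 of 6). SFTPB was on 1 array of each line and NKX2-1 on none. Of the 4 measured genes listed as BEAS-2B markers, KRT5 was on 6 of 6 BEAS-2B and 0 of 6 A549 arrays and KRT14 on 3 of 6 and 0 of 6, while VIM and CAV1 were on all arrays of both lines. PTPRC, CD3E, PECAM1, CDH5 and VWF, which mark leukocytes and endothelium, were detected on no array, while CD68, listed as a macrophage marker, was on all 12. Of the fibroblast markers, COL1A1 was on 6 BEAS-2B and 4 A549 arrays, COL3A1 on 1 and 2, and DCN on 1 and 1. Levels below are normalized log2 intensities, which cannot be compared between probes, and the lowest level of a detected probe lay between 5.18 and 5.32 on each array. In bulk RNA, a change in RNA per cell and a change in which cells are present cannot be told apart.

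**Figure D1:**
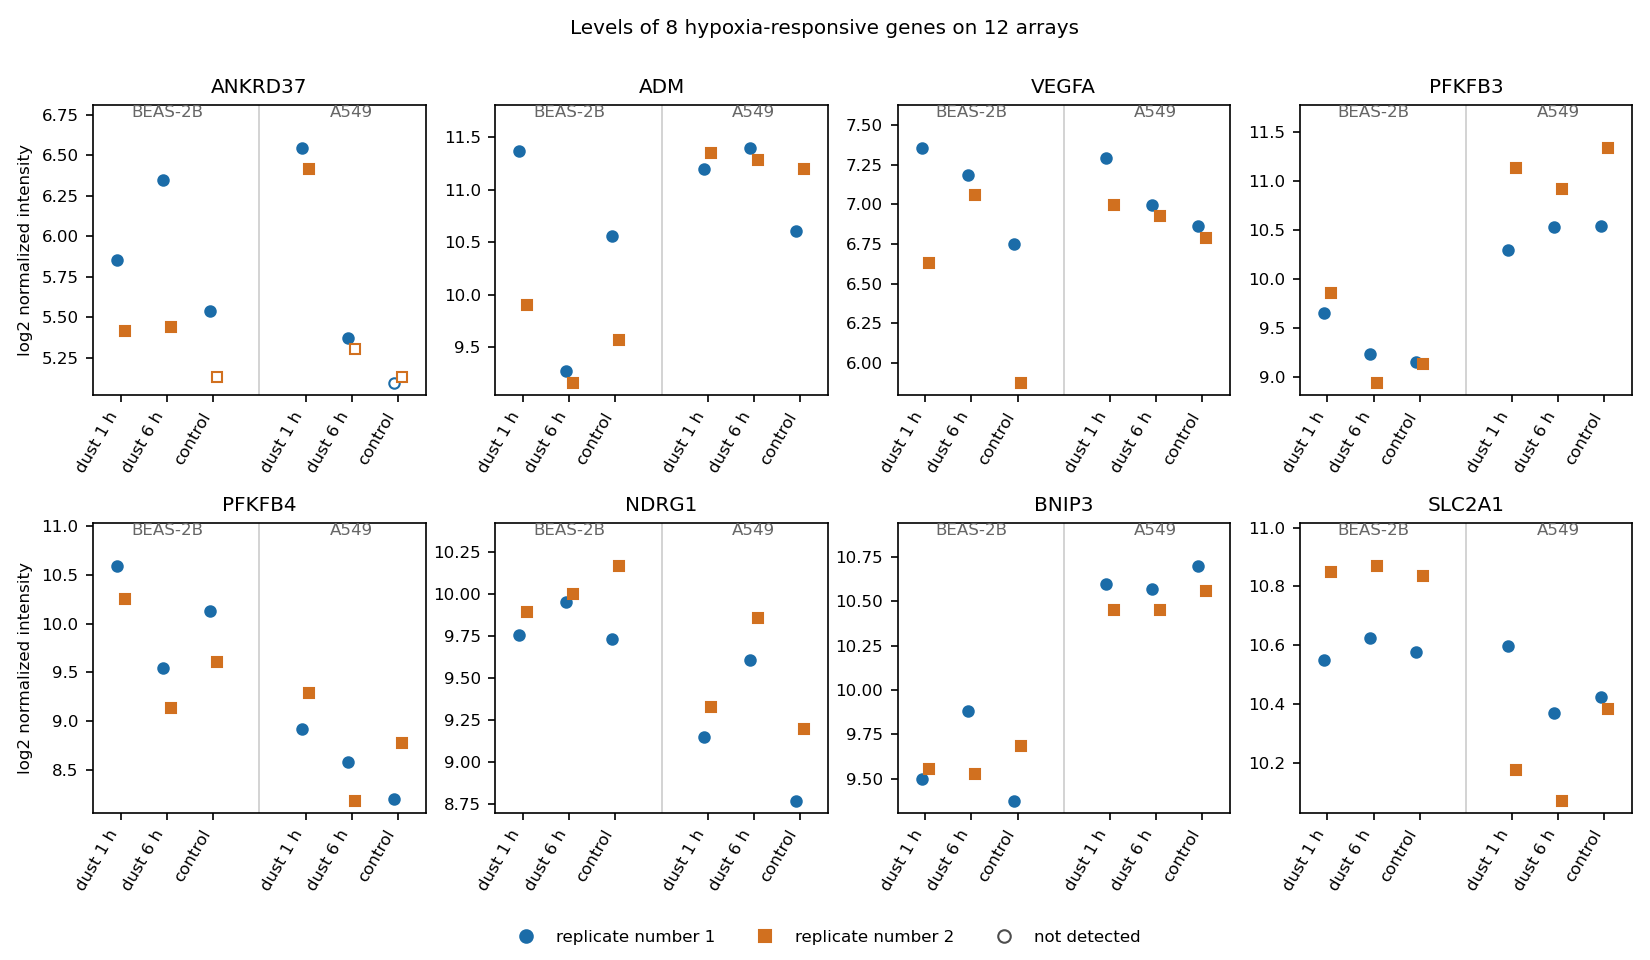
Normalized log2 intensity (y axis) of the 8 measured genes on the 12 arrays, by condition (x axis: dust for 1 h, dust for 6 h, control) within BEAS-2B and A549. Circles and squares are replicate numbers 1 and 2, and open symbols are arrays on which the probe was not detected. The 2 A549 arrays at 1 h hold the highest ANKRD37 levels.

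ANKRD37 encodes a small ankyrin-repeat protein known as a HIF target. In A549 cells its level was 6.54 and 6.41 on the arrays of numbers 1 and 2 after 1 h of dust, and 5.37 and 5.31 after 6 h, against 5.09 and 5.13 in control. Both 1 h arrays lay above all other A549 arrays. The probe was not detected on either control array or on the number 2 array at 6 h. The change at 1 h was 1.37 (SE 0.29, 95% interval 0.73 to 2.01, n = 2 per group). As a bound against the control arrays, the mean was at least 2.39-fold higher. That bound holds for this normalization and leaves out the spread between arrays. In the limma fit without pairing the change did not pass (adjusted p = 0.324). When arrays of the same number were paired as a block it did (SE 0.18, adjusted p = 0.0116), and it was 1.45 on number 1 and 1.28 on number 2. With that block, ANKRD37 then fell by 1.14 in A549 cells at 6 h relative to 1 h (adjusted p = 0.0438), whereas without the block the adjusted p was 0.730. The size of this fall depends in part on the undetected array at 6 h, whose level is not a measured one.

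The 1 h call was lost when either A549 control array or either A549 1 h array was left out (adjusted p between 0.134 and 0.347), and it held in the other 8 such fits. The call at 6 h against 1 h held in 2 of 12 such fits, those without either BEAS-2B 6 h array (adjusted p = 0.0396 each). Without background correction the 1 h change was 0.69.

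In BEAS-2B cells ANKRD37 was at 5.85 and 5.42 after 1 h and at 6.35 and 5.44 after 6 h, against 5.54 and 5.13 in control. The number 1 array was above the number 2 array in each condition, and dust arrays overlapped control arrays at both times. The changes of 0.30 at 1 h (SE 0.29) and 0.56 at 6 h did not pass (adjusted p = 1.00 and 0.900). The difference between the lines in the 1 h change, BEAS-2B minus A549, was -1.07 (SE 0.41, unadjusted p = 0.0254 in the limma fit). It did not pass after adjustment without the block (adjusted p = 1.00) or with it (0.493), so a difference between the lines was not established.

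The 3 named genes whose levels followed ANKRD37 most closely over the 12 arrays, after each line's mean was subtracted, were EGR1 (Pearson r = 0.904), RGS2 (0.901) and CCNT1 (0.889). The arrays share a chip, a pair of lines and replicate numbers, so these values only describe these arrays. EGR1, an immediate-early transcription factor, was at 9.87 and 9.68 in A549 cells after 1 h and at 5.83 and 5.08 after 6 h, against 5.68 and 5.54 in control. RGS2, a regulator of G-protein signalling, was at 8.87 and 8.53 after 1 h and at 7.81 and 7.88 after 6 h, against 7.17 and 7.27 in control. CCNT1 changed by 0.41 in A549 cells at 1 h. In BEAS-2B cells at 1 h EGR1 changed by 1.80, RGS2 by -0.02 and CCNT1 by 0.28, beside 0.30 for ANKRD37.

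ADM and VEGFA encode secreted factors: adrenomedullin, a vasodilator peptide, and vascular endothelial growth factor A, which drives blood vessel growth. ADM in BEAS-2B cells was at 11.36 and 9.91 after 1 h and at 9.28 and 9.16 after 6 h, against 10.56 and 9.57 in control. Both 6 h arrays lay below both arrays of each other group, and at 1 h the 2 arrays stood apart by more than the 2 groups did. The changes were 0.57 at 1 h (SE 0.44) and -0.84 at 6 h, and neither passed (adjusted p = 1.00 and 0.898). The change at 6 h was -1.28 on number 1 and -0.41 on number 2. Between 6 h and 1 h the difference was -1.41 (adjusted p = 0.548, or 0.0695 with the block). It was -2.08 on number 1 and -0.75 on number 2, and lay between -2.14 and -0.69 when 1 array was left out.

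ADM in A549 cells was at 11.19 and 11.35 after 1 h and at 11.39 and 11.28 after 6 h, against 10.60 and 11.20 in control. The number 1 control array was the lowest of the 6. The changes were 0.37 at 1 h and 0.44 at 6 h (SE 0.44 each, adjusted p = 1.00 each).

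VEGFA in BEAS-2B cells was at 7.35 and 6.63 after 1 h and at 7.18 and 7.06 after 6 h, against 6.75 and 5.87 in control. Both 6 h arrays lay above both control arrays, while at 1 h the ranges overlapped. The changes were 0.68 at 1 h (SE 0.31, unadjusted p = 0.0482, adjusted p = 1.00 in limma) and 0.81 at 6 h (unadjusted p = 0.0231, adjusted p = 0.750, or 0.135 with the block). The 6 h change was 0.43 on number 1 and 1.19 on number 2, and lay between 0.37 and 1.25 when 1 array was left out. In A549 cells VEGFA was at 7.29 and 6.996 after 1 h and at 6.99 and 6.93 after 6 h, against 6.86 and 6.79 in control. The A549 changes of 0.32 and 0.14 did not pass (adjusted p = 1.00 each).

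These VEGFA values come from the brightest of its 3 probes. A second probe was detected on 6 of 12 arrays. In BEAS-2B it was detected on 1 of 2 arrays at 1 h and on neither control array, so no change is read from it there. In A549 it was detected on 2 of 2 arrays at 1 h and 1 of 2 control arrays, with a difference of 0.39 that did not pass (adjusted p = 1.00). The third was detected on 0 arrays. Each of the 3 probes is annotated to a different transcript.

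PFKFB3 and PFKFB4 encode bifunctional enzymes that set the amount of fructose 2,6-bisphosphate, an activator of glycolysis. PFKFB4 in BEAS-2B cells was at 10.59 and 10.25 after 1 h and at 9.55 and 9.13 after 6 h, against 10.12 and 9.61 in control. In A549 cells it was at 8.92 and 9.28 after 1 h and at 8.58 and 8.18 after 6 h, against 8.21 and 8.77 in control. In both lines the 1 h arrays were the highest, and in BEAS-2B the 6 h arrays were below both control arrays. The changes at 1 h were 0.56 in BEAS-2B and 0.62 in A549 cells (SE 0.29 each, adjusted p = 1.00 each). Between 6 h and 1 h PFKFB4 differed by -1.08 in BEAS-2B (adjusted p = 0.437, or 0.0744 with the block) and by -0.72 in A549 cells (adjusted p = 1.00).

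PFKFB3 in BEAS-2B cells was at 9.65 and 9.86 after 1 h and at 9.23 and 8.94 after 6 h, against 9.15 and 9.13 in control. Both 1 h arrays were above all other BEAS-2B arrays, by a change of 0.61 (SE 0.32, adjusted p = 1.00). In A549 cells it was at 10.29 and 11.14 after 1 h and at 10.53 and 10.92 after 6 h, against 10.54 and 11.34 in control. There the conditions overlapped, and the number 2 array was the higher one in each. A second, dimmer PFKFB3 probe, detected on all 12 arrays, showed a change of 0.01 at 1 h in BEAS-2B (SE 0.32). The 2 probes thus gave unlike values there, and whether they differ was not tested.

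SLC2A1 encodes GLUT1, the main glucose transporter of many cultured cells. Its level in BEAS-2B cells was 10.55 and 10.85 after 1 h and 10.62 and 10.87 after 6 h, against 10.58 and 10.84 in control. The spread between numbers exceeded any difference between conditions. The change was -0.01 at 1 h (95% interval -0.51 to 0.49) and 0.04 at 6 h (-0.46 to 0.54). In A549 cells SLC2A1 was at 10.60 and 10.18 after 1 h and at 10.37 and 10.07 after 6 h, against 10.43 and 10.38 in control. The A549 changes of -0.02 and -0.18 did not pass (adjusted p = 1.00 each).

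**Figure D2:**
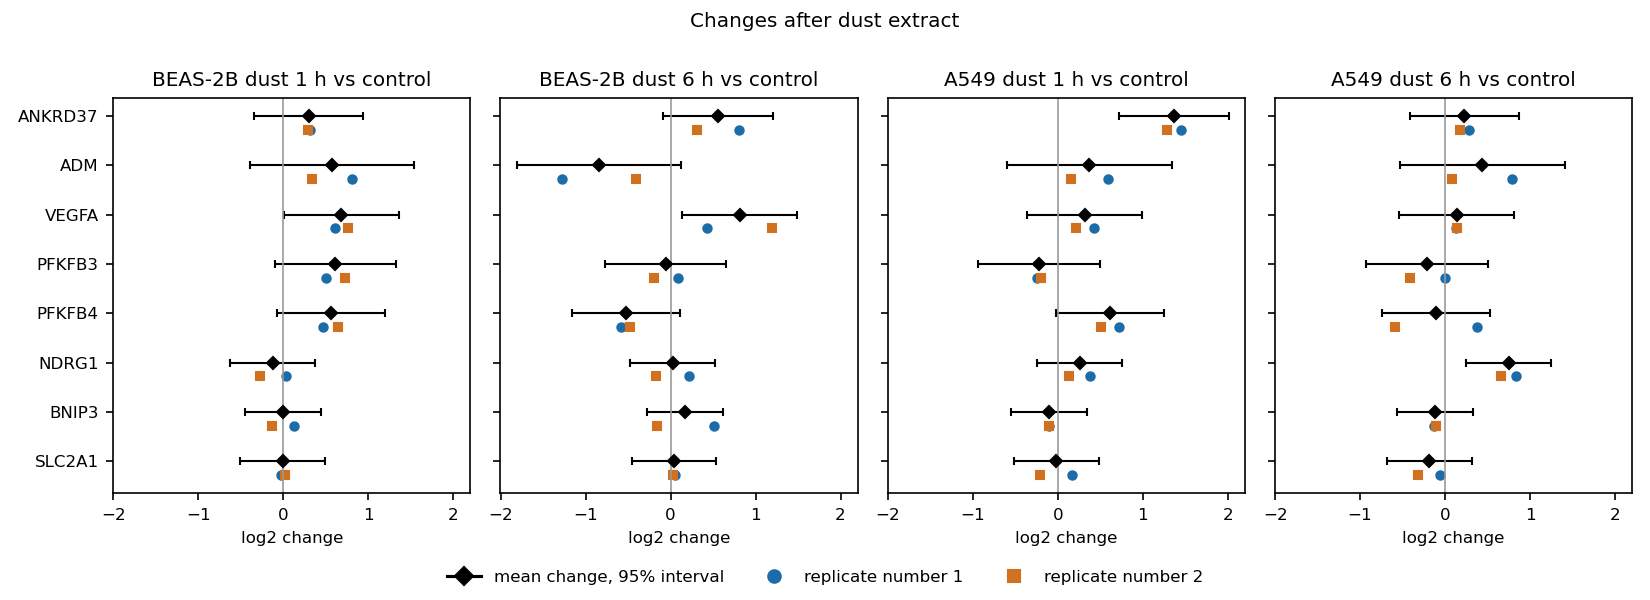
Log2 change of the 8 genes after dust extract relative to control, for 1 h and 6 h in each line. Diamonds are the fitted changes with their 95% intervals in the fit without the replicate block, and circles and squares are the changes on replicate numbers 1 and 2. The widest departure from 0 at 1 h is the A549 value of ANKRD37 at 1.37.

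NDRG1 encodes a cytoplasmic stress-responsive protein that is often used as a marker of hypoxia. In A549 cells it was at 9.14 and 9.33 after 1 h and at 9.60 and 9.85 after 6 h, against 8.77 and 9.19 in control. Both 6 h arrays were above the 4 other A549 arrays. The 6 h change was 0.75 (SE 0.23, unadjusted p = 0.00712 in limma) and did not pass after adjustment without the block (adjusted p = 1.00) or with it (0.166). It was 0.84 on number 1 and 0.66 on number 2. In BEAS-2B cells NDRG1 was at 9.76 and 9.89 after 1 h and at 9.95 and 9.998 after 6 h, against 9.73 and 10.16 in control, and the change at 6 h was 0.03 (95% interval -0.47 to 0.53). The difference between the lines in the 6 h change, BEAS-2B minus A549, was -0.72 (SE 0.32, adjusted p = 1.00).

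BNIP3 encodes a mitochondrial outer membrane protein that promotes mitophagy. In BEAS-2B cells it was at 9.50 and 9.55 after 1 h and at 9.88 and 9.53 after 6 h, against 9.37 and 9.68 in control. In A549 cells it was at 10.60 and 10.45 after 1 h and at 10.57 and 10.45 after 6 h, against 10.70 and 10.56 in control. Its 4 changes from control ranged from -0.12 to 0.17, and their 95% intervals together ran from -0.57 to 0.62. EGLN3, an oxygen-sensing prolyl hydroxylase that is itself a HIF target, was not well above background: its single probe was detected on 0 of 12 arrays.

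The comparisons of a line at 1 h and at 6 h share its control arrays. In each of the 4 comparisons of dust with control, and in both comparisons of 6 h with 1 h, 0 of the 8 genes passed an adjusted p of 0.05 in limma without the block. At an unadjusted p under 0.05, 1 of 8 genes passed in each comparison with control, where the share of all features was 4.35% in BEAS-2B at 1 h, 5.94% in BEAS-2B at 6 h, 2.47% in A549 at 1 h and 3.76% in A549 at 6 h. In each comparison of 6 h with 1 h it was 2 of 8 genes, against 5.98% of features in BEAS-2B and 3.59% in A549. Over all features, the share called without the block was 0.125% in BEAS-2B at 1 h, 0.0648% in BEAS-2B at 6 h, 0.0897% in A549 at 1 h and 0.00499% in A549 at 6 h. For 6 h against 1 h it was 0.0598% in BEAS-2B and 0.0349% in A549. With the block, the calls were ANKRD37 in A549 at 1 h (1 of 8 genes, against 0.349% of all features, 0.329% higher) and in A549 at 6 h against 1 h (1 of 8, against 0.234%, 0.165% lower), and 0 in the other 4 comparisons, where 0.538% (BEAS-2B, 1 h), 0.568% (BEAS-2B, 6 h), 0.279% (A549, 6 h) and 0.673% (BEAS-2B, 6 h against 1 h) of features were called. For the differences between the lines, 0 of 8 genes passed at either time, in either fit. The share of all features called there was 0% at 1 h and 0.00997% at 6 h without the block, and 0.0399% and 0.105% with it.

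The median change of the 8 genes at 1 h was 0.43 in BEAS-2B and 0.29 in A549, against -0.03 and -0.01 over all features. At 6 h it was 0.03 and 0.01, against -0.02 and -0.01. ANKRD37, ADM, VEGFA and PFKFB4 were higher than control at 1 h on both numbers of both lines, a pattern held by 7.15% of all features. The other 4 genes did not hold it. The genes were chosen with earlier results of these data known, so the comparisons with all features only describe them. PFKFB3 at 1 h, and ADM and SLC2A1 at 6 h, lay on one side of control on both BEAS-2B numbers and on the other side on both A549 numbers, as 10.7% and 14.1% of all features did at these times. At 1 h, 2 of 8 genes in BEAS-2B and 3 of 8 in A549 did not overlap control, against 25.7% and 27.5% of all features. At 6 h the counts were 3 and 5 of 8, against 31.9% and 32.3%. In BEAS-2B these counts lie near the background. In A549 at 6 h the 5 genes were ANKRD37, ADM, VEGFA and NDRG1 above control and SLC2A1 below. For ANKRD37 both control arrays and the number 2 array at 6 h were not detected, so no change is read from its place there. At 6 h against 1 h, 4 of 8 genes in each line did not overlap, against 31% of features in BEAS-2B and 32.5% in A549.

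**Figure D3:**
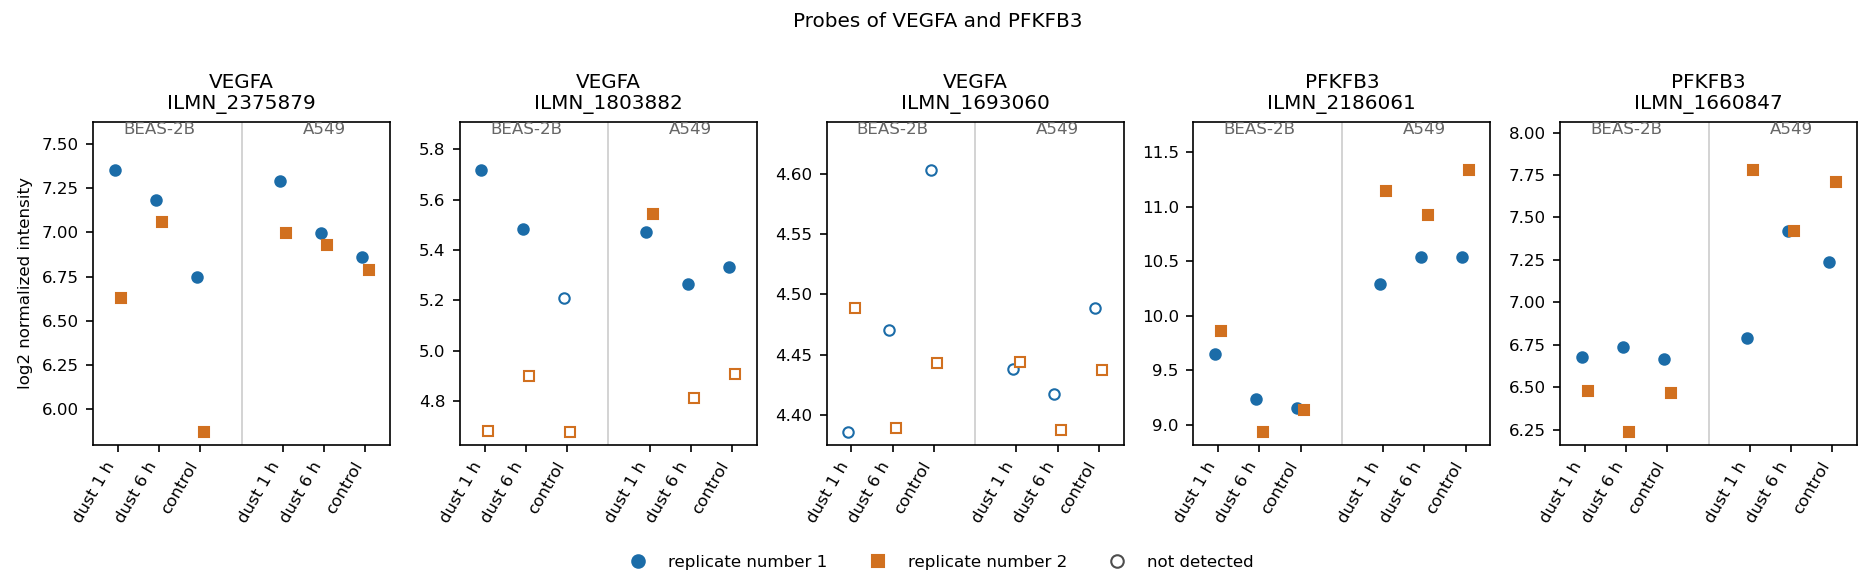
Normalized log2 intensity (y axis) of the 3 VEGFA and 2 PFKFB3 probes on the 12 arrays, by condition (x axis) in each line, with circles and squares for replicate numbers 1 and 2 and open symbols where a probe was not detected. In BEAS-2B at 1 h the difference from control was 0.61 for the brighter PFKFB3 probe and 0.01 for the dimmer, and 1 VEGFA probe is open on all 12 arrays.

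The lines were also compared in medium alone. Of the 8 genes, 4 passed in BEAS-2B against A549 in limma without the block, 2 of them higher and 2 lower, where 22.3% of all features were called (10.8% higher, 11.5% lower). The median size of the difference was 0.90 among the 8 genes, against 0.39 over all features, and the median size of the 8 genes' changes after dust was 0.20 to 0.43, against 0.13 to 0.19 over all features. The 2 control arrays of each line did not overlap those of the other for 7 of 8 genes, against 59% of features. PFKFB4 was higher in untreated BEAS-2B cells by 1.38 (SE 0.29, adjusted p = 0.00579) and NDRG1 by 0.97 (SE 0.23, adjusted p = 0.0108). PFKFB3 was lower in BEAS-2B, with a difference of -1.80 (SE 0.32, adjusted p = 0.00249), and so was BNIP3, at -1.10 (SE 0.20, adjusted p = 0.0029).

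The PFKFB4 call was lost without the number 1 A549 control array (adjusted p = 0.0622) or the number 1 BEAS-2B control array (0.0533). The NDRG1 call was lost without the number 1 A549 control array (0.0960) or the number 2 BEAS-2B control array (0.0813). The PFKFB3 and BNIP3 calls held in all 12 such fits. The dimmer PFKFB3 probe also gave a lower value in BEAS-2B, -0.91 (adjusted p = 0.0643 over all probes, or 0.0106 with the block). With the block 5 genes passed, and the added one was ADM, which was lower in BEAS-2B by -0.83 (adjusted p = 0.214 without the block and 0.0478 with it), beside 35% of all features called (17.4% lower). ADM kept that blocked call in 4 of the 12 blocked fits that left out 1 array.

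For the other genes the difference was 0.30 for SLC2A1 (adjusted p = 0.394, 95% interval -0.20 to 0.80), -0.51 for VEGFA (adjusted p = 0.276) and 0.22 for ANKRD37 (adjusted p = 0.651). ANKRD37 was detected on 1 of 2 BEAS-2B and 0 of 2 A549 control arrays, and the arrays of the 2 lines overlapped. Its bound of 1.08-fold compares means only. The 95% interval of -0.42 to 0.86 covers both directions, so no direction is read from it. Over all conditions, PFKFB3 and BNIP3 were the 2 of 8 genes whose 6 BEAS-2B arrays did not overlap the 6 A549 arrays, a pattern of 29% of all features. PFKFB3 ran from 8.94 to 9.86 (median 9.19) in BEAS-2B and from 10.29 to 11.34 (median 10.73) in A549. BNIP3 ran from 9.37 to 9.88 (median 9.54) in BEAS-2B and from 10.45 to 10.70 (median 10.56) in A549.

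**Figure D4:**
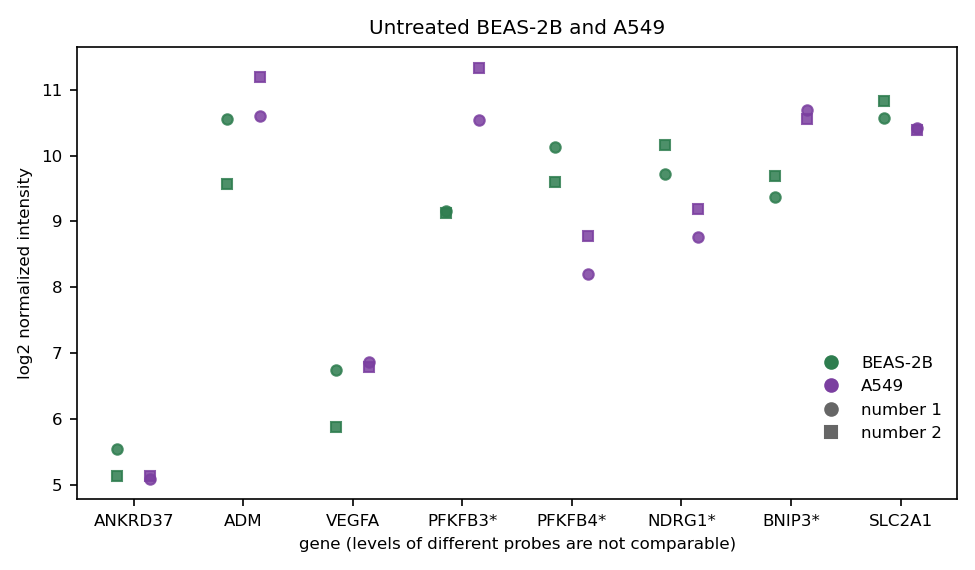
Normalized log2 intensity (y axis) of the 8 genes (x axis) in untreated BEAS-2B (green) and A549 (purple) cells, 2 arrays per line. Circles and squares are numbers 1 and 2, and an asterisk marks the 4 genes that passed without the block (PFKFB3, PFKFB4, NDRG1 and BNIP3). Levels of different genes come from different probes and are not comparable.

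The genes around the 10 were read in 4 lists. Of 12 HIF subunits and oxygen-sensing genes 11 were measured, as were 18 of 20 genes of glycolysis and glucose or lactate transport, 25 of 29 other hypoxia-responsive genes, and 7 of 13 VEGF and adrenomedullin relatives and receptors. Without the block, 0 genes of these lists passed in any of the 6 dust comparisons, including 6 h with 1 h. The median changes of the lists from control lay between -0.10 and 0.15, against -0.03 to -0.01 over all features. Among the larger changes that did not pass in either fit were STC2 in A549 at 6 h (1.48, adjusted p = 0.436, or 0.113 with the block) and NRP1 in BEAS-2B at 6 h (0.88, adjusted p = 0.505, or 0.110 with the block).

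With the block, 2 of the 25 other hypoxia-responsive genes passed in BEAS-2B at 1 h, 1 at 6 h and 1 at 6 h against 1 h, where 0.538%, 0.568% and 0.673% of all features did. ANGPTL4, a secreted lipoprotein lipase inhibitor, was at 7.37 and 8.01 in BEAS-2B cells after 1 h and at 6.90 and 7.30 after 6 h, against 5.87 and 6.11 in control. It rose by 1.70 at 1 h (adjusted p = 0.00417, or 0.731 without the block) and by 1.11 at 6 h (0.0415, or 0.877 without). In A549 cells ANGPTL4 was at 7.69 and 9.11 after 1 h and at 6.88 and 7.80 after 6 h, against 6.57 and 8.10 in control. Its A549 change at 1 h, 1.06, did not pass in either fit (adjusted p = 0.0738 with the block). BHLHE40, a transcriptional repressor, was at 12.92 and 11.93 in BEAS-2B cells after 1 h and at 11.12 and 10.19 after 6 h, against 11.71 and 10.10 in control. It rose by 1.52 at 1 h (adjusted p = 0.0101, or 0.745 without the block) and was lower at 6 h than at 1 h by -1.77 (0.00663, or 0.452 without).

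In A549 cells the block called 1 of 11 oxygen-sensing genes at 6 h (0.279% of all features), and 1 of 18 glycolysis and transport genes and 1 of 25 other hypoxia-responsive genes at 6 h against 1 h (0.234%). BHLHE40 was at 11.89 and 11.81 after 1 h and at 10.29 and 9.89 after 6 h, against 10.87 and 10.62 in control. Its change at 1 h, 1.10, did not pass with the block (adjusted p = 0.0722), and the difference of -1.76 between 6 h and 1 h did (0.00863, or 0.951 without). CITED2, which limits HIF activity by competing for the coactivator p300, was at 8.83 and 7.25 after 1 h and at 8.55 and 7.85 after 6 h, against 6.89 and 6.21 in control. Its rise of 1.65 at 6 h passed with the block (adjusted p = 0.0467, or 0.879 without), and its change of 1.49 at 1 h did not (0.0675). In BEAS-2B cells CITED2 was at 10.07 and 9.56 after 1 h and at 8.75 and 8.92 after 6 h, against 9.32 and 8.63 in control. Neither BEAS-2B change from control passed in either fit. SLC2A3, the glucose transporter GLUT3, was at 10.51 and 10.67 in A549 cells after 1 h and at 8.60 and 8.92 after 6 h, against 9.01 and 9.65 in control. It fell by 1.83 at 6 h relative to 1 h (adjusted p = 0.0217 with the block, or 0.258 without).

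**Figure D5:**
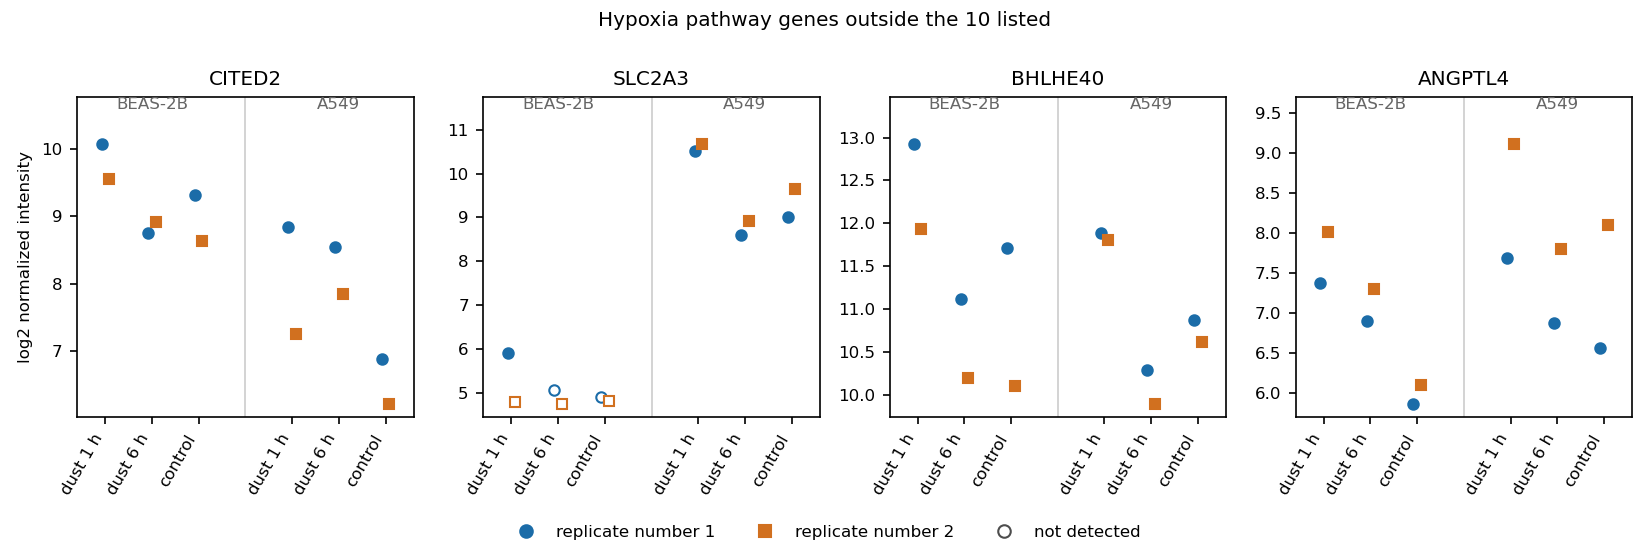
Normalized log2 intensity (y axis) of 4 hypoxia pathway genes outside the 10, by condition (x axis) in each line, with circles and squares for replicate numbers 1 and 2 and open symbols where the probe was not detected. BHLHE40 was highest after 1 h on each number in both lines.

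Between the untreated lines the lists held more calls, beside 22.3% of all features (10.8% higher, 11.5% lower), or 35% with the block. Of the 11 oxygen-sensing genes, CITED2 was higher in BEAS-2B (2.42, adjusted p = 0.00405) and EGLN1, the main oxygen-sensing prolyl hydroxylase, was lower (-1.70, adjusted p = 0.000351). With the block 1 was higher and 3 lower, the added ones being the HIF alpha subunits HIF1A (-0.89, adjusted p = 0.00268, or 0.144 without) and EPAS1 (-0.77, 0.00977, or 0.217 without). Of the 18 glycolysis and transport genes 2 were higher and 5 lower, or 2 and 7 with the block. The added calls were the glycolytic enzymes LDHA (-0.70, adjusted p = 0.00843, or 0.0984 without) and TPI1 (-0.54, 0.0349, or 0.0777 without). ALDOC, an aldolase, was higher by 1.81 (adjusted p = 0.00214), and GPI, glucose-6-phosphate isomerase, was lower (-1.89, adjusted p = 0.000166). SLC2A3 was not detected on either untreated BEAS-2B array and was at least 17.0-fold lower there (adjusted p = 7.01e-06).

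Of the 25 other hypoxia-responsive genes 4 were higher in BEAS-2B and 8 lower, or 5 and 10 with the block. The added calls were P4HA2, a collagen prolyl hydroxylase (1.25, adjusted p = 0.00167, or 0.112 without), ANGPTL4 (-1.35, 0.000445, or 0.108 without) and FAM162A (-0.62, 0.0476, or 0.191 without). STC2, a secreted glycoprotein, was higher by 2.22 (adjusted p = 0.000672). CA12, a carbonic anhydrase like CA9, was detected on 1 of 2 untreated BEAS-2B arrays, at a mean of 5.06 against 13.1 in A549 (adjusted p = 7.84e-09), so its level in BEAS-2B was at the edge of detection. The mTOR inhibitor DDIT4 was lower by a difference of -2.21 (adjusted p = 0.000825). Of the 7 VEGF and adrenomedullin relatives and receptors, RAMP1, a receptor subunit, was detected on neither A549 control array. It was at least 2.26-fold higher in BEAS-2B (adjusted p = 0.0136). The VEGF co-receptor NRP1 was lower (-3.40, adjusted p = 3.44e-06). NRP2, detected on neither untreated BEAS-2B array, was at least 2.36-fold lower there (adjusted p = 0.00171). With the block 2 of the 7 were higher and 2 lower, and the added one was the placental growth factor PGF (adjusted p = 0.00428, or 0.166 without). PGF was detected on 1 of 2 BEAS-2B and 0 of 2 A549 control arrays. Its bound of 1.24-fold compares means that include an undetected BEAS-2B array, so it is no minimum.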

How the data were processed

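RNA from 2 cell lines was hybridised to 12 Illumina bead arrays. The authors deposited unnormalized intensity values per probe and array, read with GenomeStudio 2011.1 per the submitters' processing notes, and a detection p-value for each, deposited in the same table. They also deposited a matrix of linear intensity values whose rank correlation with the unnormalized signal was 1 on each array, used here as an alternative. The 24 columns of bead numbers and bead errors were not used.

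The deposited intensity values were put on the log2 scale with neqc in limma 3.58.1 (R 4.3.3), which corrects background from the detection p-values, adds an offset of 16 and quantile-normalizes the 12 arrays. Probes detected (p under 0.05) on at least 2 arrays were kept, with the probe of highest mean taken for each gene. Limma (lmFit, eBayes) was fitted over the 6 groups of 2 arrays, 9 contrasts were taken, and p-values were adjusted over all 20060 features of each contrast by the Benjamini-Hochberg method at 0.05. A bound is given where a probe was detected on neither array of a group. It sets those arrays no lower than the lowest level of a detected probe. It compares means after this normalization and leaves out the spread between arrays. Same-numbered arrays deviated together within each line (correlations 0.404 to 0.468 in A549, 0.528 to 0.645 in BEAS-2B) and not between lines (-0.05 to 0.05), so a second fit carried the number as a block within line and is printed where it changes a call. Data were also simulated for A549 at 1 h (20060 features, 100 changed by each size). There the fit without the block recovered 26 of 100 changes of 1 on the log2 scale and 89 of 100 changes of 2. The fit with the block recovered 7 of 100 and 81 of 100. On the real arrays the block instead lowered the median SE, from 0.258 to 0.197. The simulated arrays differed from the real ones in this respect, so these counts do not give the power of either fit on these data.

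All 10 genes are named. Of the pathway lists, the genes passing in either fit could be named, together with the 2 of largest change per list, and the 3 genes most like any of the 10 that passed after dust. The genes and lists were chosen with earlier results of these data known. The number of arrays limits the precision.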

Additional observations from a re-analysis of the deposited data

Results flagged for a closer look

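For 3 of the 8 genes both replicate numbers of BEAS-2B lay on one side of control and both numbers of A549 on the other. The PFKFB3 change at 1 h differed by 0.84 (BEAS-2B minus A549), with 0.61 in BEAS-2B and -0.22 in A549 (adjusted p = 1.00 in limma without the block and 0.786 with it). The dimmer PFKFB3 probe gave a difference of 0.20, with -0.45 on number 1 and 0.07 on number 2 of A549, and so did not hold the pattern. The ADM change at 6 h differed by -1.28, with -0.84 in BEAS-2B and 0.44 in A549 (adjusted p = 1.00, or 0.369 with the block). The SLC2A1 change at 6 h differed by 0.23, with 0.04 in BEAS-2B and -0.18 in A549 (adjusted p = 1.00, or 0.810 with the block). Without the block, none of the 3 reached an unadjusted p of 0.05 in limma, while with it PFKFB3 and ADM did.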

How the results depend on the processing

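Without the block, the count of the 8 genes passing after dust was 0 in each of the 6 comparisons and stayed 0 in each alternative other than the blocked fits. With the replicate block it was 1 in A549 at 1 h and 1 in A549 at 6 h against 1 h, both ANKRD37, and the pairing changed no call of these genes after dust in the other 4. When 1 array was left out of the blocked fits, added after seeing the data, the count was 0 to 1 in A549 at 1 h, 0 to 1 in A549 at 6 h against 1 h and 0 to 1 in BEAS-2B at 6 h against 1 h. In the untreated lines it was 4, 5 with the block, and 2 to 6 when 1 array was left out with or without the block, the 2 without the number 1 A549 control array. Leaving out all BEAS-2B arrays of a number was also added later, and leaves 1 array per BEAS-2B group. Without number 1 the difference between the untreated lines was 1.12 for PFKFB4, against 1.38 with all arrays. For ADM it was then -1.33, against -0.83, and for VEGFA -0.95, against -0.51. Without number 2 it was 0.75 for NDRG1, against 0.97.

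Of 696 values of single genes under the other alternatives, 667 kept their call or, where never called, moved by less than the residual SD, 22 moved by more, 5 gained a call, 2 lost it and 0 reversed. Of 864 values with 1 array left out and no block, 782 stayed in that sense, 78 moved by more, 4 lost their call and 0 called values reversed. Among uncalled values the sign changed for 13 of the 696 and 44 of the 864. The ANKRD37 change at 1 h in A549 was 0.69 in the authors' deposited matrix and 0.85 with an offset of 50, against 1.37. Levels near background, such as those of ANKRD37, EGLN3 and the dimmer VEGFA probes, limit what could be measured.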
